A study of Mus musculus with 8 samples.

Results

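Among the wells of a Gcg reporter sort that held enough transcripts to be used, 61 of 411 read as enterocytes rather than as hormone cells. A well counted as a member where it held at least 2000 transcripts outside spike-ins and mitochondrial genes, where the enterocyte genes Cyp3a11, Cyp2c29, Ces2a, Fabp2, Apoa1, Apoa4 and Guca2b summed to at least 50 per 10000 of those transcripts, and where that sum exceeded the sum of the endocrine granule genes Chga, Chgb, Scg2, Scg5, Cpe and Pcsk1. The members were therefore chosen by measured values, and how they differ from the other 350 kept wells is given as a description with no test. Members were 37 of 229 kept wells on plate 1 and 24 of 182 on plate 2, together 14.8% with a 95% Wilson interval of 11.7 to 18.6%. The whole series holds 1032 kept wells on 8 plates.

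Enterocytes are the absorptive cells that line the villus: they digest peptides and sugars at their brush border, package dietary fat into lipoproteins, and oxidise and conjugate foreign compounds. Enteroendocrine cells arise from the same crypt stem cells by the secretory route and release peptide hormones, of which Gcg encodes the GLP-1 precursor of L cells. BMP4 is a secreted ligand whose receptors phosphorylate Smad proteins, and Id genes are among its direct transcriptional targets. BMP signalling is known to be stronger at the villus than in the crypt, and along the villus enterocytes are known to pass from antimicrobial and metabolic genes near its base to lipoprotein genes and then tip genes.

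Both Gcg-Venus plates hold single live cells sorted for the Venus reporter of Gcg from mouse intestinal organoids of C57BL/6 background, cultured gut epithelium that contains no stromal or immune compartment of its own. Cells of organoids without BMP4 lay in columns 1 to 6, cells after 24 h of BMP4 in columns 7 to 12 and cells after 4 days of BMP4 in columns 13 to 24 of each plate, so that the condition and the position on the plate cannot be told apart. All groups carry the same reporter. Transcripts were counted by SORT-seq, which tags each molecule and each of the 384 wells before pooling, and both plates use the same 384 well numbers. For 1 of those numbers the well was a member on both plates. Whether these plates stem from separate cultures is not in the labels. The p-values therefore reflect only a spread between sums of wells from 2 plates, shared over genes, which may be technical.

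Over both plates together, member wells were deeper than other kept wells, but not on plate 1 at 24 h. Members held 2049 to 76564 transcripts with a median of 16735, against 2008 to 42855 with a median of 8962 in the other kept wells. The median number of genes detected was 3938 in members and 3044 in other kept wells, and spike-in transcripts had a median of 419 in members and 390 in other kept wells. On plate 1 at 24 h members had a median of 5553 transcripts and 1943 genes, against 9017 and 3307 in other kept wells. Summed by plate and condition, members held 282020 transcripts in 10 untreated wells, 37620 in 5 wells at 24 h and 486283 in 22 wells at 4 days on plate 1. On plate 2 they held 79080 in 6 untreated wells, 332269 in 16 wells at 24 h and 13094 in 2 wells at 4 days, where the deeper well gave 68.2% of the sum. Both of the small sums stood apart in nuclear RNA, the summed level of Malat1, Neat1, Kcnq1ot1, Meg3 and Xist, with 70999 CPM in the 5 members of 24 h on plate 1 and 77266 CPM in the 2 members of 4 days on plate 2, against 26894 and 8303 CPM in untreated members of these plates. Spike-ins took a median of 7.7% in those 5 wells and 6.78% in those 2, against 1.8 and 2.12% in untreated members. The part of RNA quality in the results that use these sums was not tested.

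The sums that chose the members lay far apart in nearly every well. The 7 enterocyte genes took 52.5 to 1300 per 10000 transcripts in members with a median of 492, against a median of 5.25 and a highest value of 54.4 in other kept wells. The 6 endocrine genes had a median of 1.47 per 10000 in members and 66.8 in other kept wells. Just inside the threshold stood members at 52.5, 90 and 92.3 per 10000. Just outside stood other kept wells at 54.4, 48.2 and 45.4 per 10000, whose endocrine sums were 69.2, 41.9 and 68.1. No well combined an enterocyte sum of at least 50 with an endocrine sum of at least 100 per 10000. Of the 61 members, 59 had an endocrine sum under 10 and 56 had an enterocyte sum of at least 100. When each well was first thinned to 2000 transcripts, 62 wells met the rule, among them the same 61.

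**Figure D1:**
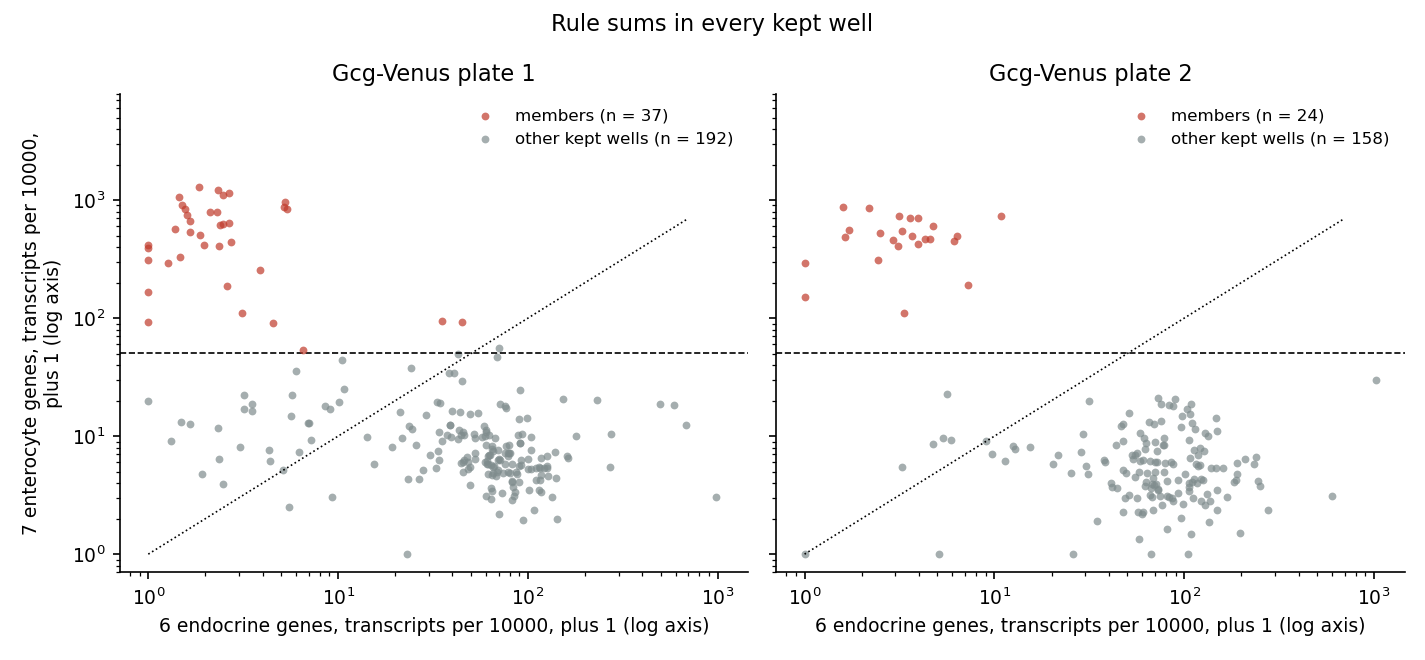
Each point is 1 kept well; the vertical axis is the sum of the 7 enterocyte genes and the horizontal axis the sum of the 6 endocrine genes, in transcripts per 10000 plus 1 on log axes, with the threshold of 50 dashed and equality dotted. Members (37 on plate 1, 24 on plate 2) form a group at a median of 492 per 10000 apart from other kept wells at 5.25.

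To show the start regions of genes that define the members, 3 windows are printed, for Cyp3a11, a drug-oxidising cytochrome P450, for Alpi, the intestinal alkaline phosphatase of the brush border, and for Fabp2, the intestinal fatty acid-binding protein. Each window runs from 250 bases before to 50 bases after the start of the gene in RefSeq on GRCm38.p6, 5′ to 3′ on the strand of the gene. Capitals mark CAAAGTCCA, a form of the site read by the nuclear receptor HNF4, and TTTATNG, a form of the site read by the intestinal factors CDX1 and CDX2, searched on both strands with no overlap between them.
Cyp3a11, chr5:145879805-145880104, minus strand: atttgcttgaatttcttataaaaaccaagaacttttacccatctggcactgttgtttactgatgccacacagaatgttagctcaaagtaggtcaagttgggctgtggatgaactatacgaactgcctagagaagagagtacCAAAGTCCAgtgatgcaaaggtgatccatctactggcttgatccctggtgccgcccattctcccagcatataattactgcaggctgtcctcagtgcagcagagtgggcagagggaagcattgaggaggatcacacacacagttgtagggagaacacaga
Alpi, chr1:87101557-87101856, minus strand: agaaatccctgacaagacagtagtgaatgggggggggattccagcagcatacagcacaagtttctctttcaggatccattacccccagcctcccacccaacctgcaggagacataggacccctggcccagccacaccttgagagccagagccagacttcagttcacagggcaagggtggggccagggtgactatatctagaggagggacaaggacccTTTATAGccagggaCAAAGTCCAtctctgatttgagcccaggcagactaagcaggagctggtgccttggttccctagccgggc
Fabp2, chr3:122894822-122895121, plus strand: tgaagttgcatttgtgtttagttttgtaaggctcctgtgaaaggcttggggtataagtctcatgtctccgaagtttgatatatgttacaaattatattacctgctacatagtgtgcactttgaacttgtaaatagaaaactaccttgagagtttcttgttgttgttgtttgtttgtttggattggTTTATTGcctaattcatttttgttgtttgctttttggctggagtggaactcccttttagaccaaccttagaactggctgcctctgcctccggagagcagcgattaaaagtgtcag
CAAAGTCCA begins 109 bases before the start of Cyp3a11 and 19 bases before that of Alpi, and TTTATNG 33 bases before that of Alpi and 65 bases before that of Fabp2. Of 32851 such windows, 0.475% hold CAAAGTCCA and 10.9% hold TTTATNG. A match describes letters in a window and says nothing of whether a factor binds there. AGATAA, a form of the GATA site, and GTTAAT, a part of the HNF1 site, were searched too and are in 11.2 and 7.1% of all windows. Among the 8 genes looked up, the 7 of the rule and Alpi, AGATAA was found in the window of Cyp2c29 and GTTAAT in that of Guca2b, and none of the 4 motifs in those of Apoa1, Apoa4 and Ces2a.

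The 5 markers given for the cell type were high in the members on both plates, as the choice of members by 4 of them fixes in part. A level in CPM is a count in the sum of wells of a class on a plate after scaling every such sum to one common size. The counting error of a ratio is small where both classes hold many transcripts. It is large where other kept wells hold few, as for Fabp6, Treh and Slc7a9 below. Fabp2 stood at 12922 and 6491 CPM in members on plates 1 and 2, against 208 and 101 CPM in other kept wells, ratios of 62 and 64.4. Apoa1, the main protein of high-density lipoprotein, stood at 12153 and 11198 CPM in members, against 108 and 64.9 CPM in other kept wells. Apoa4, a chylomicron apolipoprotein, stood at 6029 and 1879 CPM in members, against 38.5 and 14.7 CPM in other kept wells. These first markers differed between classes by far more than between plates, and within members Apoa4 was also higher on plate 1 than on plate 2. Cyp3a11 stood at 14224 and 11498 CPM in members, against 108 and 66 CPM in other kept wells. Alpi, which the rule did not use, stood at 2238 and 1358 CPM in members, against 30.1 and 13.6 CPM in other kept wells, ratios of 74.4 and 100. Of the 16 enterocyte markers listed, 12 were at least 4-fold higher in members on both plates, as were 4.37% of all 8979 genes measured. These 12 include the 7 genes of the rule, which the choice of members put there, so the count is no independent support. Outside the rule, Sis, Krt20, Slc5a1 and Anpep did not reach 4-fold on both plates. Sis, the sucrase of the brush border, was at 4211 and 3934 CPM in members, against 1626 and 2483 CPM in other kept wells. Krt20, a keratin of differentiated villus cells, was at 1810 and 1782 CPM in members, against 1499 and 1662 CPM in other kept wells. These markers of the mature villus were thus well represented in both classes.

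Defining markers of Paneth, tuft, stem and microfold cells were few or at 0 in the 61 members, and goblet cell genes were present at a low level. The goblet cell list of 9 genes, including Muc2 and Tff3, summed to 580 and 420 CPM in members, against 21001 and 3767 CPM in other kept wells. Tff3, a trefoil peptide, gave 257 transcripts in 53 member wells, Fcgbp, a mucus protein, 198 in 47, and Muc2, the gel-forming mucin, 66 in 33. Of the Paneth cell list Defa17, Defa24, Mmp7, Ang4 and Itln1 were at 0 in members and Lyz1 had 1 transcript. Of the tuft cell list Pou2f3, Avil, Il25 and Sh2d6 were at 0, Dclk1 had 2 transcripts and Trpm5 had 1. The stem cell markers Olfm4 and Axin2 were at 0, Lgr5 had 2 transcripts and Smoc2 had 12 in 7 member wells. Of the cycling markers Mki67 and Top2a had 6 transcripts each, Tyms 42 in 18 member wells and Birc5 17 in 10. Pcna, which also serves DNA repair, had 177, at 125 and 179 CPM against 51.2 and 57.8 CPM in other kept wells. The cycling list summed to 191 and 231 CPM in members, against 110 and 109 CPM in other kept wells, and was thus higher in members. The microfold cell markers Gp2 and Spib, the T cell gene Cd3e and the fibroblast gene Col1a1 were at 0. Ccl9 of the microfold list and Ptprc of the immune list had 4 transcripts each. A count of 0 in 1230369 transcripts limits a level, not the cells that express a gene.

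**Figure D2:**
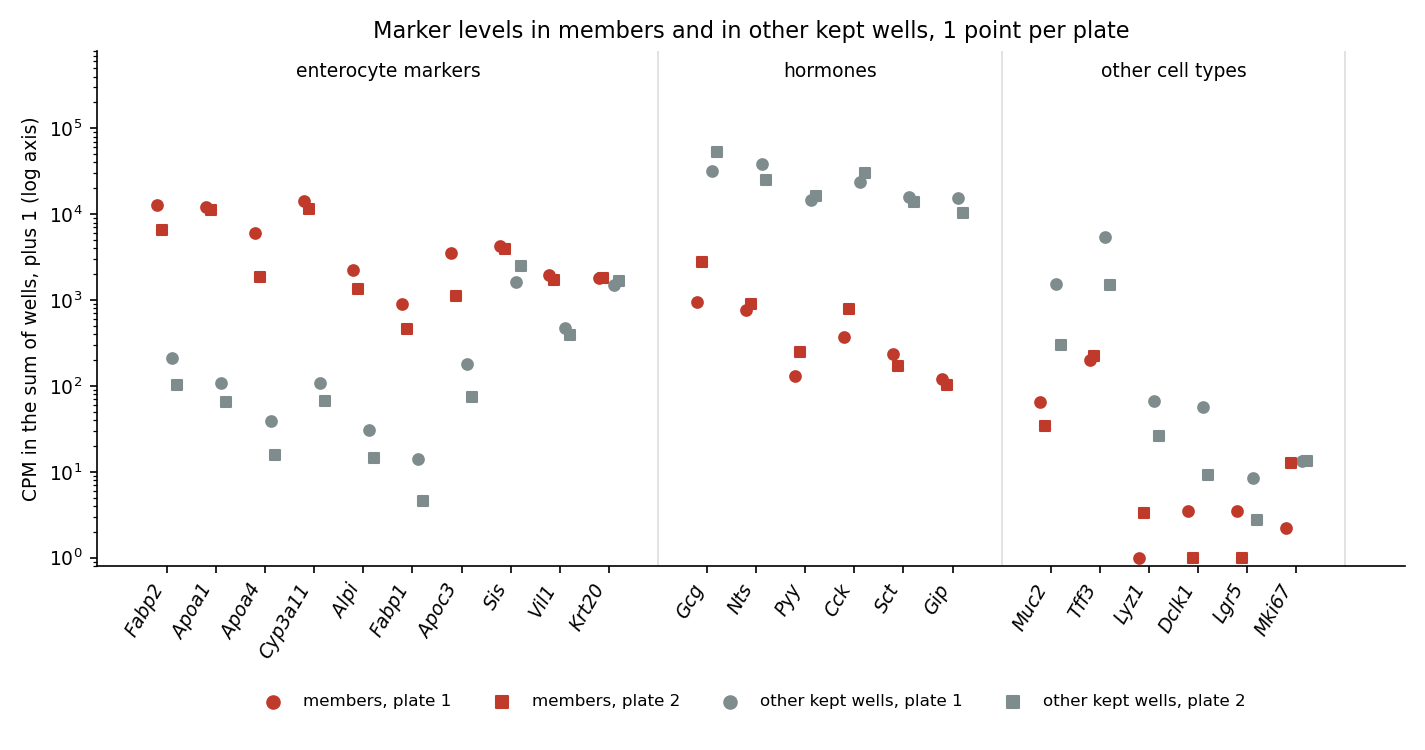
Points give CPM plus 1 on a log axis in the sum of wells of each class, circles for plate 1 and squares for plate 2, for enterocyte markers, hormones and markers of other cell types. Members lie above other kept wells for Fabp2 (12922 and 6491 against 208 and 101 CPM) and below them for Gcg (953 and 2747 against 32207 and 53593 CPM).

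Endocrine genes were lower in the summed members on both plates, with exceptions among single wells. Of 25 enteroendocrine markers that could be measured, 22 were at least 4-fold lower in members on both plates, as were 17 of 19 secretory granule genes, 14 of 17 endocrine transcription factors and 8 of 9 hormones. Over all 8979 genes measured 8.83% were that much lower in members, and part of these lists was fixed by the endocrine side of the rule. The highest endocrine sums among members were 44 and 34.2 per 10000, in wells of 2271 and 2049 transcripts, and single members reached 310 per 10000 for Nts and 221 for Sct. For Gip 12 members lay above the median of other kept wells. Neurod1, a transcription factor of endocrine differentiation, was at 37.2 and 37.7 CPM in members, against 2126 and 2296 CPM in other kept wells. Etv1, a transcription factor outside the rule, was at 7.45 and 7.07 CPM in members, against 538 and 674 CPM. Vim, which encodes vimentin, was at 3.72 and 4.71 CPM in members, against 206 and 336 CPM, and Fabp5, a fatty acid-binding protein, at 3.72 and 18.8 CPM, against 830 and 987 CPM.

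Gcg, the gene whose reporter sorted these cells, was detected in each of the 61 members. It stood at 953 and 2747 CPM in members on plates 1 and 2, against 32207 and 53593 CPM in other kept wells, that is 2.96 and 5.13% of their level. This share pools conditions between which the other kept wells differed. At 4 days alone Gcg stood at 945 and 3370 CPM in members, against 2754 and 4329 CPM in other kept wells. Per well the median was 16.2 per 10000 in members and 77.7 per 10000 in other kept wells. Wells with under 500 transcripts, 251 on both plates, held a median of 7.01 Gcg transcripts each, against 25.1 in members and 54.4 in other kept wells, and Gcg made up 81.1 and 105% of the level of other kept wells there. The part of background RNA in the Gcg of the members was not tested. Nts, which encodes neurotensin, stood at 773 and 893 CPM in members, against 38584 and 25025 CPM in other kept wells. Cck, cholecystokinin, stood at 368 and 777 CPM in members, against 23906 and 30389 CPM. Gip, the incretin of K cells, stood at 120 and 101 CPM in members, against 15479 and 10412 CPM. As a share of the level in other kept wells on plate 1, Gcg at 2.96%, Nts at 2%, Cck at 1.54%, Sct at 1.46%, Pyy at 0.889% and Gip at 0.778% differed in the members. Conversely the 7 enterocyte genes of the rule stood in other kept wells at 0.977 and 0.739% of their level in members.

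Genes that convert foreign compounds were the group most often higher in the members, in 32 of 38 measured genes of the list, with 1 lower. Over all genes measured 4.37% were higher and 8.83% lower. Close copies within the Cyp2c, Cyp3a, Ces1, Ces2, Gstm and Ugt2b families can share reads, so that the level of a single copy is uncertain. Cyp2b10, a cytochrome P450, stood at 2040 and 1863 CPM in members, against 9.4 and 7.08 CPM in other kept wells, ratios of 217 and 263. Gstm1, a glutathione transferase, stood at 10282 and 15329 CPM in members, against 155 and 182 CPM. Aldh1a1, a retinaldehyde dehydrogenase, stood at 5124 and 5428 CPM in members, against 46.5 and 38.9 CPM. Mgst1, a microsomal glutathione transferase, stood at 1453 and 1399 CPM in members, against 10.3 and 9.43 CPM. Each of these differences was far larger than that between plates. Of 8 measured retinoid genes 5 were higher and 2 lower. Among the higher were Rdh7, a retinol dehydrogenase, Retsat and Rbp2, the cellular retinol-binding protein of the gut. Rbp2 stood at 487 and 387 CPM in members, against 37.1 and 32.4 CPM.

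Lipid handling genes were higher in 16 of 27 measured and lower in none at the same 4-fold limit, against 4.37 and 8.83% of all genes measured. Mttp, which loads lipid onto nascent lipoproteins, stood at 1910 and 1587 CPM in members, against 28.7 and 41.3 CPM in other kept wells. Apob, the structural protein of chylomicrons, stood at 750 and 632 CPM in members, against 30.1 and 34.2 CPM. Apoc3, another apolipoprotein, stood at 3514 and 1125 CPM in members, against 178 and 72.5 CPM. Dgat1, which makes triglyceride, stood at 1094 and 805 CPM in members, against 57.3 and 40.1 CPM, and Fabp1, the liver-type fatty acid-binding protein, at 907 and 461 CPM, against 13.2 and 3.54 CPM. Chylomicron assembly genes were thus present in the members from lipid esterification to the apolipoproteins.

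Of 33 measured brush border genes 15 were higher in members, and of 21 transport genes 9, against 4.37% of all genes measured. Mgam, a maltase, stood at 1875 and 2034 CPM in members, against 273 and 291 CPM in other kept wells, and Vil1, villin of the microvillus core, at 1961 and 1692 CPM, against 466 and 390 CPM. Enpep, an aminopeptidase, stood at 796 and 865 CPM in members, against 11.3 and 6.49 CPM. Treh, trehalase, stood at 247 and 307 CPM in members, with 3 and 2 transcripts in all other kept wells. Slc7a9, a cystine transporter, stood at 256 and 191 CPM in members, against 2.35 and 1.18 CPM, and Slc5a1, the glucose transporter, at 1031 and 817 CPM, against 449 and 545 CPM. Krt8, a keratin of simple epithelia, stood at 2335 and 2653 CPM in members, against 2580 and 1820 CPM. Transport and scaffold genes thus ranged from ratios near 1 to ratios above 100, the latter over few transcripts in other kept wells, 5 and 2 for Slc7a9.

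Of 25 measured nuclear regulators of enterocytes 4 were higher in members and 1 lower, against 4.37 and 8.83% of all genes measured. Creb3l3, a membrane-bound factor of lipid genes, stood at 467 and 304 CPM in members, against 17.9 and 7.67 CPM in other kept wells, and Hnf4g at 298 and 257 CPM, against 45.6 and 62.5 CPM. Hnf4a stood at 499 and 399 CPM in members, against 324 and 314 CPM, and Klf5 at 382 and 401 CPM, against 422 and 447 CPM. The receptors and Smads of the BMP pathway had none of 8 measured genes past 4-fold in either direction, and Bmpr1a, a type I receptor, stood at 64.5 and 40.1 CPM in members, against 108 and 123 CPM.

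Genes of several positions along the villus and along the intestine were present in the summed members, which does not show whether single wells held them together. Over all 8979 genes measured 4.37% were higher and 8.83% lower in members, against which each list count here is to be read. Of 10 measured genes of the villus base list 5 were higher in members, namely Ccl25, Reg3a, Reg3b, Reg3g and Il18, with 1 lower. Ccl25, a chemokine for T cells, stood at 1204 and 1087 CPM in members, against 13.2 and 17.1 CPM in other kept wells, and Reg3b, an antimicrobial lectin whose family members can share reads, at 482 and 1030 CPM, against 4.7 and 8.84 CPM. Of 13 measured villus tip genes Enpep and Creb3l3 were higher and 1 was lower. Of 9 measured ileal and bile acid genes 6 were higher. Fabp6, the ileal bile acid-binding protein, had 315 and 230 transcripts in members with 3 transcripts on each plate in other kept wells, and it was found in 15 of 61 members. Cubn, the ileal receptor for intrinsic factor, stood at 476 and 274 CPM in members, against 6.11 and 4.72 CPM. Of 9 measured proximal genes Mttp, Fabp1, S100g and Bche were higher, while Gata4, a factor of the proximal gut, stood at 75.7 and 80.2 CPM in members, against 47 and 64.3 CPM. Among stress and immune lists, B2m, the light chain of class I molecules, stood at 2350 and 1993 CPM in members, against 215 and 166 CPM, and Ddit3 of the stress response at 34.7 and 44.8 CPM, against 6.58 and 10.6 CPM.

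The members differed among themselves by more than their depth. Fabp2 ranged over wells from 0.419 to 481 per 10000 with a median of 52.2, Apoa1 from 0 to 338 with a median of 98.7, and Apoa4 from 0 to 384 with a median of 13.1 and transcripts in 55 of 61 wells. Cyp3a11 ranged from 6.31 to 320 with a median of 88.2, and Alpi from 0 to 52.2 with a median of 12.3. Reg3b was found in 32 of 61 members and reached 98.4 per 10000. Across the 61 wells, which share their plates and their totals, Cyp3a11 and Cyp2c29 had a Spearman rho of 0.75, Cyp3a11 and Ces2a 0.72, Alpi and Fabp2 0.72, and Apoa1 and Apoa4 0.52. Reg3b and Apoa4 ran in opposite directions, with a rho of -0.49 over 61 wells and -0.63 over the 52 wells with at least 5000 transcripts, and Reg3b and Reg3g had a rho of 0.55. The enterocyte sum itself had a rho of 0.52 with the total of a well. These are descriptions over wells of 2 plates that mix the conditions.

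**Figure D3:**
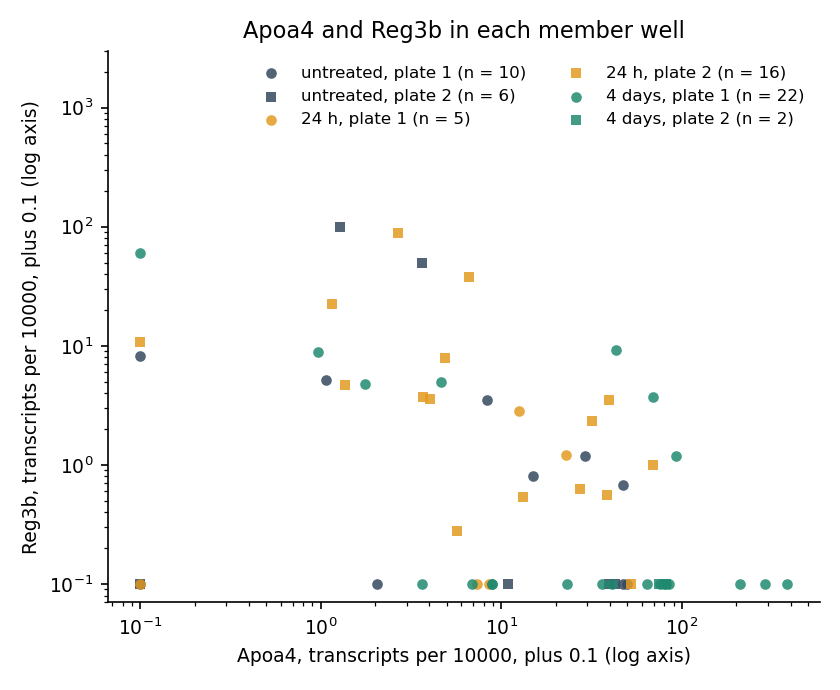
Each point is 1 of 61 member wells, with Apoa4 on the horizontal and Reg3b on the vertical axis in transcripts per 10000 plus 0.1 on log axes, coloured by BMP4 condition and shaped by plate. Wells high in one tend to be low in the other (Spearman rho -0.49), and the highest Apoa4 value, 384 per 10000, belongs to a well of 4 days.

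The share of kept wells that were members did not move the same way with BMP4 on both plates. On plate 1 members were 10 of 64 untreated wells (15.6%), 5 of 70 at 24 h (7.14%) and 22 of 95 at 4 days (23.2%). On plate 2 they were 6 of 75 untreated wells (8%), 16 of 83 at 24 h (19.3%) and 2 of 24 at 4 days (8.33%). At 24 h the difference from untreated was thus -8.48 percentage points on plate 1 and 11.3 on plate 2, and at 4 days 7.53 and 0.333. On plate 1 the Wilson interval at 24 h, 3.09 to 15.7%, lay just below that at 4 days, 15.8 to 32.6%, and the intervals of the other pairs of conditions overlapped on both plates. These intervals cover counting error only. A sign-flip permutation over 2 plates cannot give a two-sided p below 0.5. The wells kept were themselves 49.5% at 4 days on plate 1 and 12.5% at 4 days on plate 2, against 66.7 and 78.1% of untreated wells, and the part of this in the member shares was not tested.

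**Figure D4:**
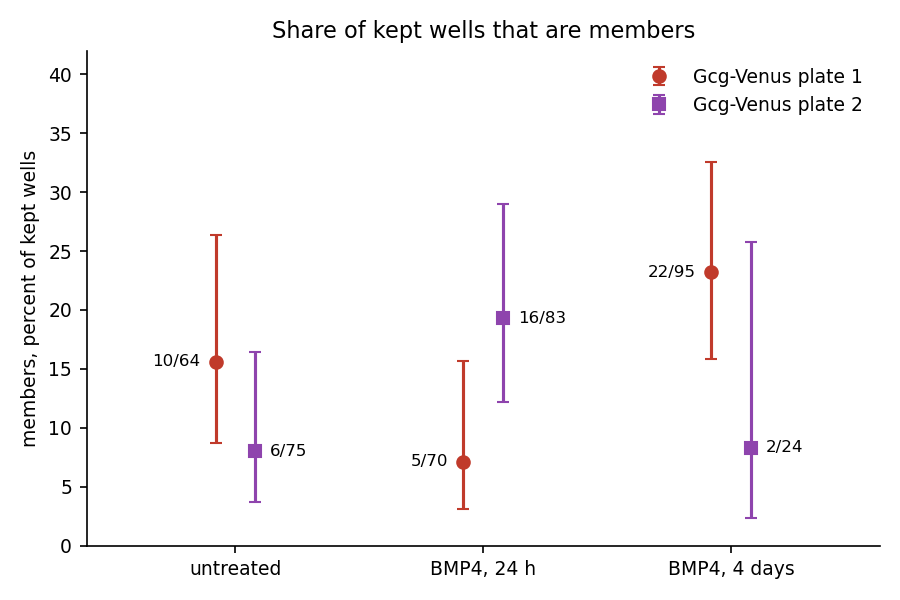
Points give members as a percentage of kept wells for each condition on plates 1 and 2, with 95% Wilson intervals and the counts beside them. The 24 h value is the lowest on plate 1 (7.14%) and the highest on plate 2 (19.3%).

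Whether the members themselves responded to BMP4 was tested on counts summed per plate, condition and class, with edgeR's quasi-likelihood test and Benjamini-Hochberg adjustment over 9686 genes at 0.05. The fit took 11 sums, because the 2 wells of plate 2 at 4 days were too few, so that the 4 day contrast of the members rests on plate 1 and the levels of plate 2 stand beside it untested. That arm is 1 sum, assumed to vary like the other sums of the fit. Those sums supply the spread behind each 4 day SE and p given for members and for their difference from other kept wells. The fit kept 3 residual degrees of freedom and gave every gene the spread shared by genes of like level. No SE or p of the fit thus measures the spread of its own gene between plates. Each SE was worked back from the test, as the size of the log2 change over the square root of the F value. It is an approximation and not a separate estimate. Fitted changes are set against plate levels to which the untreated and 24 h sums of both plates contribute, and so are not the ratios of plate 1 alone: Id1 changed by 6.51 in the fit and by 4.83 without plate 2, and Smad7 by 3.29 and 4.31. In those 2 wells 1 transcript amounts to 76.4 CPM, and a count of 0 allows up to 229 CPM. At 24 h 2 genes passed in members, 0.0206% of those tested, against 38 genes or 0.392% in other kept wells. At 4 days 102 genes passed in members, or 1.05%, of which 68 or 0.702% were higher and 34 or 0.351% lower, against 260 genes or 2.68% in other kept wells. Of these 102, 69 had one sign on both plates when the 2 wells of plate 2 were read too. The median change over all genes in members at 4 days was 0.25 on the log2 scale, and DESeq2's size factors lowered it by 0.18 and gave 109 higher and 88 lower genes. DESeq2 itself called 27 higher and 32 lower. Fitted with the 2 wells of plate 2 included, 16 were higher and 25 lower, and with members alone 8 and 12. Plates differed more in members: over 683 genes the SD of the 24 h change between plates was 1.02 in members and 0.552 in other kept wells, on the log2 scale.

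Some genes of the BMP target list rose in the members of plate 1 at 4 days, namely Id1, Id3, Id2, Tbx3 and Smad7. Other tested targets did not pass there. Skil changed by 2.62, Hes1 by 0.27, Smad9 by -0.44 and Tgif1 by -0.56 on the log2 scale. Bambi was not found in members, and Smad6 is given below. In other kept wells 7 of the 11 tested targets passed as higher at 4 days, against 191 of all 9686 genes. Id1, an inhibitor of basic helix-loop-helix factors, had 189 CPM at 4 days on plate 1, where 17 of 22 wells held it, against 7.09 CPM in untreated members, where 1 of 10 did. That is 92 transcripts against 2, a ratio of 26.7 with a counting interval of 7.18 to 224, and the fit gave a log2 change of 6.51 ± 0.91 (SE, adjusted p = 1.9e-09). The 2 wells of plate 2 at 4 days held none in 13094 transcripts. Id3, a relative of Id1, had 73 transcripts at 4 days on plate 1 against 2 in untreated members, a ratio of 21.2 with a counting interval of 5.65 to 178 (log2 change 5.79 ± 0.91, adjusted p = 2.9e-07). Id2 had 48 transcripts against 5, a ratio of 5.57 with an interval of 2.23 to 17.9 (log2 change 3.52 ± 0.87, adjusted p = 0.011), and Id2 lost its call in 4 of 15 alternatives, while Id1 and Id3 kept theirs in each of 15. Tbx3, a T-box transcription factor, changed by 2.40 ± 0.62 (adjusted p = 0.017), with 179 CPM at 4 days against 46.1 CPM untreated on plate 1 and 2 transcripts in each of these sums on plate 2. Smad7, an inhibitor of the pathway, had 33 transcripts at 4 days against 1 untreated on plate 1 (log2 change 3.29 ± 0.95, adjusted p = 0.0498). With the 2 wells of plate 2 in the fit, the adjusted p was 0.28 for Tbx3, 0.24 for Id2 and 0.17 for Smad7, and Smad7 lost its call in 10 of 14 alternatives. Its relative Smad6 had 18 transcripts against 0, at least 3.48-fold higher over a floor of 3 counts, and did not pass (adjusted p = 0.084). The Id genes and Tbx3 thus went up in the members of plate 1, with no 4 day value of plate 2 in the fit.

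At 24 h no BMP target of 11 tested passed in the members, against 5 in other kept wells. The summed level of the target list was 346 CPM at 24 h on plate 1, against 128 CPM in untreated members. No gene of the list held more than 3 transcripts in that 24 h sum, and those with 3 were Tbx3 and Tgif1, so this level carries a large counting error. On plate 2 the summed level was also higher at 24 h, at 672 CPM. On plate 2 Id1 had 55 transcripts in 10 of 16 members at 24 h against 0 in 6 untreated members, at least 4.36-fold higher. Id2 had 54 against 0, at least 4.28-fold higher, and Id3 56 against 0, at least 4.44-fold higher. On plate 1, where the 5 wells of 24 h held 37620 transcripts, Id1 had 0 transcripts at 24 h and 2 untreated, Id2 1 and 5, and Id3 1 and 2, too few to measure a change there. These are the 5 wells of high nuclear RNA given above. The fitted changes at 24 h were 3.48 ± 0.98 for Id1 (adjusted p = 0.28) and 3.75 ± 0.98 for Id3 (adjusted p = 0.17). In other kept wells Id1 stood at 132 CPM on plate 1 and 145 CPM on plate 2 at 24 h, against 5.1 and 1.65 CPM untreated. The response of members minus that of other kept wells was 0.66 for Id1 and 0.55 for Id3 at 4 days on the log2 scale. Neither passed, which does not show that the responses were alike, since the members at 4 days were 1 sum.

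**Figure D5:**
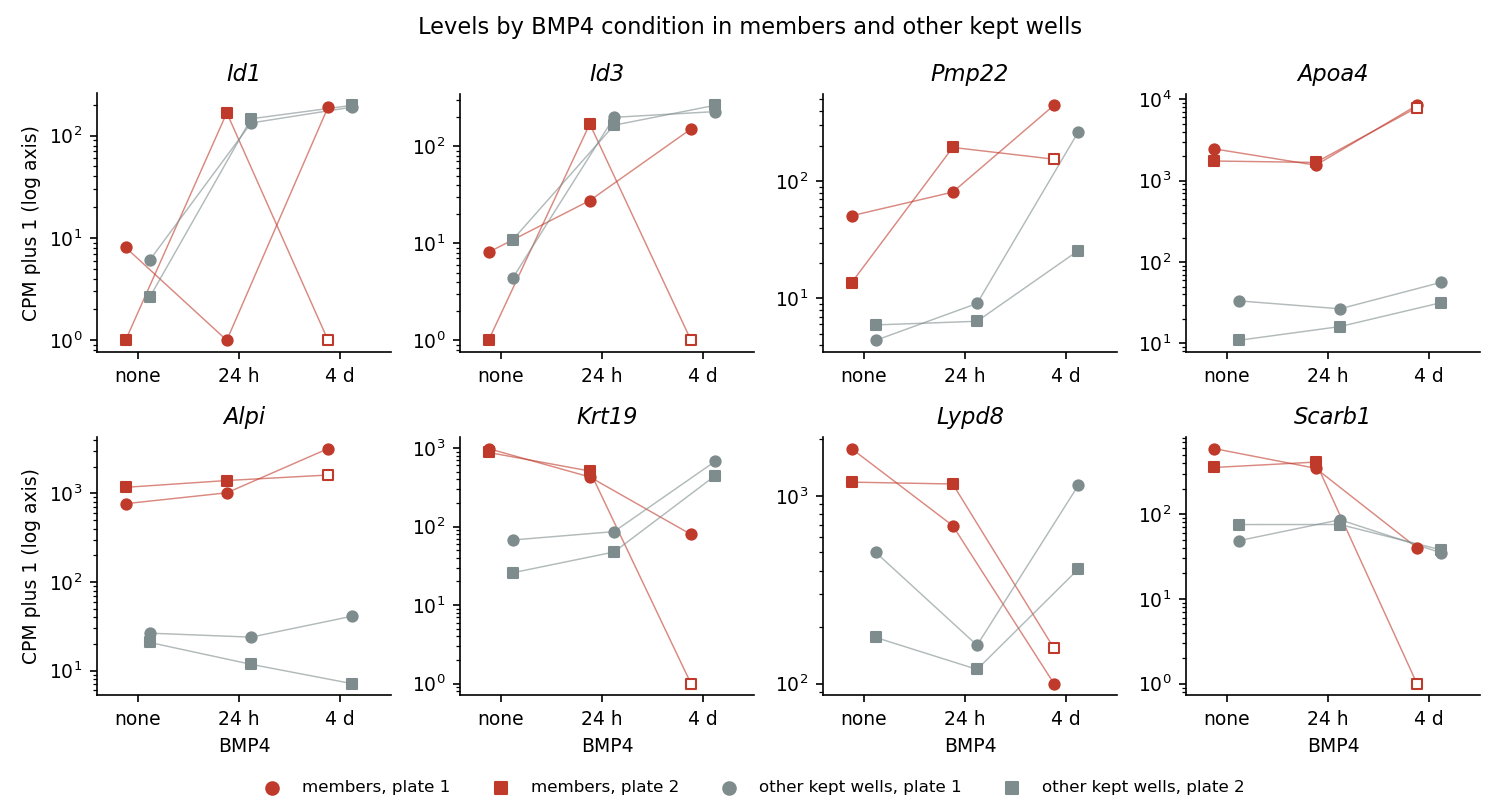
Points give CPM plus 1 on log axes in members (red) and other kept wells (grey) without BMP4, at 24 h and at 4 days, circles for plate 1, squares for plate 2, open for the 2-well sum left out of the fit. Id1 in members reached 189 CPM at 4 days on plate 1 and 166 CPM at 24 h on plate 2, while Krt19 fell in members to 78.3 CPM at 4 days on plate 1, against 978 CPM untreated.

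The 2 genes that passed in members at 24 h were Oasl1 and Clca4a. Oasl1, an interferon-induced gene, stood at 426 and 220 CPM at 24 h on plates 1 and 2, against 39 and 12.6 CPM in untreated members, higher on both plates, with 75% of the plate 1 transcripts at 24 h in 1 well (log2 change 3.25 ± 0.59, adjusted p = 3.2e-04). The response of members minus that of other kept wells was 3.42 ± 0.79 and did not pass (adjusted p = 0.083). Clca4a, of a family of secreted proteins linked to chloride currents whose copy Clca4b can share its reads, had 90 transcripts at 24 h against 1 untreated on plate 2, a ratio of 21.4 with a counting interval of 3.75 to 855, and 1 transcript each on plate 1 (log2 change 4.10 ± 0.90, adjusted p = 0.023). The 24 h call of Clca4a thus came from plate 2. At 4 days it had 81 transcripts against 1 on plate 1, a ratio of 47 with an interval of 8.2 to 1878.

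Enterocyte genes outside the rule were among those higher at 4 days in members of plate 1. Alpi stood at 3189 and 1607 CPM at 4 days, against 763 and 1167 CPM in untreated members, and changed by 2.41 ± 0.61 on the log2 scale (adjusted p = 0.016). On plate 2 alone the ratio of Alpi was 1.38 with a counting interval of 0.815 to 2.23. Slc27a4, a fatty acid transporter, stood at 907 and 764 CPM at 4 days, against 245 and 240 CPM untreated (log2 change 2.16, adjusted p = 0.024). Cubn stood at 642 and 535 CPM at 4 days, against 232 and 215 CPM untreated (log2 change 1.91, adjusted p = 0.015). Agpat2, of triglyceride synthesis, passed at 1.69 (adjusted p = 0.048) with 268 CPM at 4 days against 103 CPM untreated on plate 1, but 76.4 against 114 CPM on plate 2. The call of Agpat2 thus holds for plate 1. With the 2 wells of plate 2 in the fit the adjusted p was 0.87 for Alpi, 0.63 for Slc27a4, 0.56 for Cubn and 0.55 for Agpat2, and with members alone it was 0.31 or more for each of these genes, so that none of these 4 calls holds in those fits. Apoa4, whose level helped to choose the members and which is therefore described with no test, stood at 8449 CPM at 4 days on plate 1 and 7923 CPM on plate 2, against 2455 and 1743 CPM in untreated members. Among the enterocyte markers that the rule did not use, Alpi alone passed. Against 0.702% of all genes tested that rose and 0.351% that fell, of 28 lipid genes 2 rose and 1 fell, of 33 brush border genes 1 rose and 1 fell, and of 41 xenobiotic genes 1 fell. Of 10 ileal and bile acid genes 3 rose, namely Cubn, Clec2h, a lectin-like receptor, and Slc51b, a subunit of the basolateral bile acid exporter. Clec2h stood at 1418 CPM at 4 days on plate 1, against 367 CPM untreated, and was found in 22 of 22 members at 4 days. Clec2h and Slc51b also missed the threshold with the 2 wells of plate 2 in the fit (adjusted p = 0.63 and 0.42).

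Further genes higher at 4 days had few transcripts in untreated members. Plb1, a brush border phospholipase, had 114 transcripts in 12 of 22 wells at 4 days and 0 in 10 untreated wells on plate 1, at least 22-fold higher over a floor of 3 counts (adjusted p = 1.2e-09). On plate 2 Plb1 had 3 transcripts at 4 days and 0 untreated. Mxd1, a partner of Max that opposes Myc, stood at 369 CPM at 4 days on plate 1, against 14.2 CPM untreated, with 3 transcripts in each of these sums on plate 2 (log2 change 4.80 ± 0.65, adjusted p = 1.2e-09). Pmp22, a membrane protein of cell junctions, stood at 443 CPM at 4 days on plate 1, against 49.7 CPM untreated, with 2 and 1 transcripts on plate 2 (log2 change 3.84 ± 0.55, adjusted p = 9.1e-09), and missed the threshold with DESeq2 (adjusted p = 0.1). Pmp22 and Mxd1 were also higher at 4 days in other kept wells, Mxd1 at 306 and 79.8 CPM against 17 and 8.26 CPM untreated. Slc6a8, the creatine transporter, stood at 627 CPM at 4 days in members on plate 1, against 95.8 CPM untreated, with 2 and 4 transcripts on plate 2 (log2 change 3.28 ± 0.54, adjusted p = 1.7e-06). Klf4, a factor of terminal differentiation, changed by 2.43 ± 0.54 (adjusted p = 0.0026), with 393 CPM at 4 days against 95.8 CPM untreated on plate 1 and 9 and 10 transcripts on plate 2, and missed the threshold with those 2 wells in the fit (adjusted p = 0.24), as did Lgals3 (adjusted p = 0.1). Ceacam1, an adhesion molecule, and Lgals3, a galectin, also passed, at 3.36 ± 0.63 (adjusted p = 6.9e-05) and 3.01 ± 0.53 (adjusted p = 9.5e-06), with 191 CPM for Ceacam1 and 670 CPM for Lgals3 at 4 days, against 31.9 and 149 CPM untreated, on plate 1. With DESeq2 both missed the threshold (adjusted p = 0.08 for Ceacam1 and 0.31 for Lgals3).

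Genes lower in members at 4 days included Bco1 and Scarb1 of carotenoid handling. Of 10 tested genes of the villus base list Lypd8 and Reg3a were lower, and of 14 villus tip genes Klf4 and Pmp22 were higher, against 0.351% of all genes lower and 0.702% higher. Lypd8 and Reg3a lost their calls without the deepest wells, Klf4 with the 2 wells of plate 2 in the fit and Pmp22 with DESeq2. Bco1, which splits beta-carotene, had 2 transcripts at 4 days against 55 untreated on plate 1, a ratio of 0.0211 with a counting interval of 0.00249 to 0.0799 (log2 change -4.93 ± 0.84, adjusted p = 4.9e-06). Scarb1, a scavenger receptor for lipoproteins and carotenoids, stood at 39.1 CPM at 4 days on plate 1, against 591 CPM untreated, and on plate 2 at 0 in 2 wells, against 354 CPM untreated (log2 change -3.44 ± 0.61, adjusted p = 1.7e-05). Isx, an intestinal homeobox factor, had 36 transcripts in 12 of 22 members at 4 days on plate 1 and 0 in untreated members, at least 6.96-fold higher (adjusted p = 0.017). Isx missed the threshold with members alone (adjusted p = 0.45) and without the deepest wells (adjusted p = 0.15). On plate 2 Isx had 0 transcripts in 24 members of any condition. Lypd8, an antibacterial surface protein, stood at 98.9 CPM at 4 days on plate 1, against 1781 CPM untreated, and had 2 transcripts at 4 days on plate 2, against 93 untreated (log2 change -3.58 ± 0.72, adjusted p = 3.9e-04). Krt19, a keratin of simple epithelia, stood at 78.3 CPM on plate 1 and 0 on plate 2 at 4 days, against 978 and 875 CPM untreated (log2 change -3.22 ± 0.68, adjusted p = 9.1e-04). Without the deepest member well of each sum, an alternative chosen after seeing the data, Lypd8 and Krt19 missed the threshold (adjusted p = 0.063 and 0.065). Reg3a stood at 279 CPM at 4 days on plate 1 and at 0 on plate 2, against 2266 and 1579 CPM untreated (log2 change -2.51 ± 0.67, adjusted p = 0.024), and missed the threshold without the deepest wells (adjusted p = 0.22), whereas Reg3b at 1.97 ± 0.59 (adjusted p = 0.071) and Reg3g at -1.58 ± 0.52 (adjusted p = 0.13) did not pass. Cotl1, an actin-binding protein, passed at -5.15 ± 0.84 (adjusted p = 1.1e-06), with 74.2% of its 58 untreated transcripts on plate 1 in 1 well, and missed the threshold without that well (adjusted p = 0.086).

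Responses of members and of other kept wells were compared directly. At 24 h no gene of 9686 passed for the difference with edgeR (0%), with 382 at an unadjusted p under 0.05 and 9 by DESeq2. At 4 days 38 genes passed, or 0.392%, 8 higher and 30 lower in the response of members, and 34 of them had one sign on both plates. A single untreated member of plate 1, which ranked 5 of 10 by depth, held each of the 47 Anxa1, 71 S100a6 and 10 Dpysl3 transcripts of those members, 74.2% of Cotl1 and 51.6% of Krt19. Its enterocyte sum was 186 and its endocrine sum 1.61 per 10000. Without this well, an alternative chosen after seeing the data, 17 genes passed for the difference and 89 in members at 4 days. Krt19 was lower at 4 days in members, as given above, whereas other kept wells stood at 676 and 444 CPM at 4 days, against 66.4 and 24.8 CPM untreated. The difference of the responses was -7.03 ± 0.89 (adjusted p = 8.7e-12), and -6.32 without that well (adjusted p = 5.6e-10). Gcg stood at 945 and 3370 CPM at 4 days in members, against 793 and 2094 CPM in untreated members, with a change of 0.39 ± 0.67 that did not pass (adjusted p = 0.92). In other kept wells Gcg stood at 2754 and 4329 CPM at 4 days, against 61909 and 85954 CPM untreated. The difference between classes was 4.67 on the log2 scale. Members were chosen against endocrine genes, and their low untreated Gcg left little room for such a fall. This difference is therefore no independent result about the response of members. Goblet cell genes moved in the other kept wells at the same time, with a summed level of 38147 and 16766 CPM at 4 days, against 18239 and 2957 CPM untreated, and their part in these differences was not tested.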

How the data were processed

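Sorted single cells in 384-well plates were measured by SORT-seq, per the labels' protocols. The submitters' processing notes name BWA 0.6.2-r126 and the build mm10. Which tool counted the reads, with which annotation, and whether strand was used, is not given in the sources used here. Deposited values are expected counts: numbers of transcripts after a correction by the authors for identifiers drawn repeatedly, since inverting it with 4096 possible identifiers gave whole numbers within 0.01 for 100% of nonzero values on the Gcg plates. The Gcg plates list no mitochondrial genes, and spike-ins stayed out of totals.

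Wells with at least 2000 transcripts were kept. No doublet caller was run. The members and the 28 gene lists were chosen with earlier results of these data known, and so support no finding by themselves. Deposited expected counts were summed per plate, condition and class, rounded, filtered with filterByExpr, scaled with TMM and fitted by edgeR's quasi-likelihood method (edgeR 4.0.16, R 4.3.3), with plate within class as the replicate block, condition within class, at least 3 wells per sum and Benjamini-Hochberg adjustment at 0.05. Plate numbers mark physical plates that hold all conditions side by side, so they pair the sums by design; the residuals of 2 sums of the same plate had correlations of 0.0329 to 0.0809. The test was tried on simulated counts first. DESeq2 1.42.0 was an alternative. Members and other kept wells were compared by ratios of CPM, described as higher or lower at 4-fold or more on both plates, over genes with at least 20 transcripts on each plate and a floor of 3 counts. Genes named are the rule genes, markers, the largest ratios at 100 CPM or more, the largest changes among genes that passed at an average log2 CPM of 5 or more with one sign on both plates, every BMP target and hormone measured, and the leading genes of each list; predicted, ribosomal protein and histone genes were left out. Genes of the difference lists follow the same rule, and Agpat2, Slc27a4, Cubn, Clec2h, Slc51b, Klf4, Reg3a and Isx were named because they passed within a list. Promoter windows are from RefSeq on GRCm38.p6, the assembly of mm10, and were found for 8 of 8 genes looked up.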

Additional observations from a re-analysis of the deposited data

Results flagged for a closer look

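The 14 genes below are part of those whose 4 day response differed between members and other kept wells. The test was of the difference itself (edgeR's quasi-likelihood test, Benjamini-Hochberg adjusted, members at 4 days from plate 1). Named are the largest differences, at most 8 each way, at an average log2 CPM of at least 5 with one sign on both plates. The full numbers, more often lower than higher in members, are given above. Values are members' log2 change minus that of other kept wells. The response was higher in members for Plb1 (11.65, adjusted p = 3.5e-04), Clca4a (6.37, adjusted p = 0.037), Gcg (4.67, adjusted p = 3.7e-05), Slc6a8 (3.89, adjusted p = 3.2e-05), Irf1 (3.49, adjusted p = 0.019) and Nipal1 (2.97, adjusted p = 0.015). It was lower in members for Anxa1 (-9.56, adjusted p = 6.1e-20), Krt19 (-7.03, adjusted p = 8.7e-12), S100a6 (-5.91, adjusted p = 2.7e-08), Dpysl3 (-5.79, adjusted p = 7e-04), Gsn (-5.55, adjusted p = 0.0027), Emp1 (-5.25, adjusted p = 2.5e-04), Cotl1 (-5.11, adjusted p = 9.5e-05) and Lypd8 (-4.91, adjusted p = 2e-05). Plb1 had 0 transcripts in untreated members, so its value is no bound. For Gcg the change was 0.39 in members and -4.27 in other kept wells, so that the difference lay in the fall in other kept wells. Members were chosen against endocrine genes, so that a fall of that size could hardly appear in them. The part of background RNA in their Gcg was not tested. The untreated transcripts of Anxa1 (47), S100a6 (71) and Dpysl3 (10) in members on plate 1 lay in 1 and the same of 10 wells. Without that well the difference was -0.08 for Anxa1 (adjusted p = 1), 0.27 for S100a6 (adjusted p = 1) and 1.46 for Dpysl3 (adjusted p = 0.98), and Cotl1 (adjusted p = 0.29), Gsn (adjusted p = 0.16), Clca4a and Irf1 (adjusted p = 0.061 for both) missed the threshold. Clca4a missed it in 8 of 13 alternatives. With sums of 2 wells allowed, Slc6a8 (adjusted p = 0.13), Nipal1 (adjusted p = 0.092) and Irf1 (adjusted p = 0.2) missed it too. Other kept wells carried most of the change for Anxa1, which stood at 298 and 86.1 CPM at 4 days on plates 1 and 2, against 1.7 and 6.6 CPM untreated. Emp1 stood in members at 497 and 76.4 CPM at 4 days, against 592 and 215 CPM untreated, and in other kept wells at 138 and 43 CPM, against 3.4 and 0 CPM.

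Outside the Gcg plates, 11 of 621 kept wells met the same rule, and each came from 4 days of BMP4. Of these, 5 were on the Gip plate, 5 on the single-condition Tac1 plates of 4 days and 1 on a mixed Tac1 plate. Those single-condition plates, with 38 and 50 kept wells, hold no other condition. On the Gip and mixed Tac1 plates 4 days fills columns 13 to 24 of 24. Whether these wells depend on BMP4 was not tested. Wells of these plates were not used in any comparison.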

How the results depend on the processing

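Values below come from one choice changed at a time, but the limit of 1000 transcripts per well also brought the 4 day members of plate 2 into the fit. Genes that passed in members at 24 h numbered 2; the number was 34 with DESeq2's size factors, 16 with DESeq2, 13 with no replicate block, 4 at 1000 transcripts per well, and 1 with no filter on low counts or with members alone. In members at 4 days it was 102; it was 197 with those size factors, 59 with DESeq2, 54 unfiltered, 20 with members alone, 48 at 1000 transcripts, 41 with sums of 2 wells allowed, 60 without the deepest member well of each sum and 124 with no replicate block. Allowing sums of 2 wells and leaving out the deepest well, or the 1 untreated member of plate 1 highest in Anxa1, were chosen after seeing the data. Higher genes made up 66.7% at 4 days in members, but 55.3% with DESeq2's size factors, 45.8% with DESeq2, 40% with members alone, 39.6% at 1000 transcripts and 39% with sums of 2 wells. In other kept wells the 38 genes of 24 h became 69 with those size factors and 17 with DESeq2, and the 260 of 4 days became 456, 136 with DESeq2, 162 at 1000 transcripts and 159 with sums of 2 wells. The difference at 24 h, 0 genes, became 19 with the size factors, 9 with DESeq2, 4 with no replicate block and 1 without the deepest well or without the Anxa1 well; at 4 days 38 became 130 with the size factors, 25 at 1000 transcripts, 25 with sums of 2 wells, 24 without the deepest well and 17 without the Anxa1 well, where Dpysl3 at 1.46 and S100a6 at 0.27 turned direction, with no call. The replicate block otherwise kept each count of genes within 1.5 times. The cause was not tested.

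Thinning each well to 2000 transcripts left 135 genes at least 4-fold higher, of 392, and 80 lower, of 793. Without either plate these numbers ranged over 480 to 519 and 1107 to 1343, since fewer plates have to meet the limit. The member share differed by -8.48 to 11.3 points at 24 h and by 0.333 to 7.53 points at 4 days over single plates. Without Gcg-Venus replicate 1, where 2 wells remain at 4 days, Smad7 at -6.21 and Agpat2 at -1.01 turned direction; without replicate 2 they stood at 4.31 and 1.51. Counts of genes that pass without a plate could not be given, for want of residual degrees of freedom, and sums of at least 10 wells could not be fitted. Members numbered 56 to 67 over the other limits tried. Of 1618 values of single tested genes under alternatives, 134 lost and 11 gained their call. Plb1, Mxd1, Slc6a8, Bco1, Scarb1, Clca4a and Ms4a18 passed at 4 days in members under each alternative in which they were tested. Depth limits the 24 h members of plate 1 (37620 transcripts) and the 4 day members of plate 2 (13094).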
